A study of Mus musculus with 24 samples.

Results

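The copy number of 4 genes, Lin28a, Lin28b, Mycl and Myc, was followed across murine adrenal glands and neuroblastoma tumours profiled by shallow whole genome sequencing (sWGS). These 4 genes were chosen by name, as neuroblastoma oncogenes other than Mycn, from 20621 autosomal protein-coding genes with a value in every sample. The labels list 24 mouse samples, and 21 of them carry copy number segments. AGM denotes 5 adrenal glands of genotype MYCN fl/wt, CRE +. TI denotes 8 tumours of CRE + animals with the IGF2BP1 transgene, with the genotype IGF2BP1 +/- in replicate 1 and IGF2BP1 +/+ in the remaining 7. TIM denotes 8 tumours labelled IMP1/MYCN, CRE +, where IMP1 is another name of IGF2BP1. The remaining 3 samples, CRE - adrenal glands (AG), were the reference of the authors and have no segment values here. In all CRE + animals the transgene sits at the Rosa26 locus and is switched on by iCRE under the Dbh promoter, which is active in sympatho-adrenal cells. TI replicate 6 and TIM replicates 1 and 5 are labelled as tumours of the adrenal gland.

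Each value below is the median log2 ratio to AG of the segment that holds the gene, so that 0 means no difference from wildtype. Following the thresholds of the study, a ratio of at least 0.3 is called a gain and one of at most -0.4 a loss. A segment value averages all cells of a piece of tissue, so an alteration in a part of the cells and a weaker one in all of them cannot be told apart. Samples carried 48 to 123 segments, and the depth of the libraries was not analysed here. DNA holds no cell type markers, so the labelled tissues could not be checked in that way. The 8 TIM and 5 AGM libraries carry titles with the prefix AGH, whereas 7 of the 8 TI libraries and all AG libraries carry the prefix SH. What the prefixes stand for is not stated in the labels. The labels name no animal for a sample, so p-values measure only the spread between these samples.

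LIN28A and LIN28B are RNA-binding proteins that bind precursors of let-7 microRNAs and block their maturation, and let-7 in turn represses both Lin28 transcripts. MYC, MYCL and MYCN are related transcription factors that bind DNA together with MAX and drive growth and proliferation. In human neuroblastoma MYCN is the member of the family that is most often amplified, and LIN28B and MYC are known as further oncogenes of this tumour.

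The let-7 sequences are shown because they link the LIN28 genes to the targets counted below. The seed of mmu-let-7a-5p is GAGGUAG at bases 2 to 8, which is in capitals here. From RefSeq, the 9 mature let-7 microRNAs with this seed were kept.
mmu-let-7a-5p: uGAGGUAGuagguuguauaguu
mmu-let-7e-5p: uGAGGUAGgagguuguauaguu
mmu-let-7i-5p: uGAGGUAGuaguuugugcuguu
The 7 bases that pair with this seed, CTACCTC, were searched in the sense strand of the 3′ untranslated region (UTR) of the canonical GENCODE transcripts on GRCm39. Lin28a held 2 matches in 2775 bases and Lin28b held 4 in 4515 bases. These matches are in capitals, lie in exonic 3′ UTR sequence and are written 5′ to 3′ on the minus strand, which is the strand of both genes.
Lin28a, chr4:133732500-133732522: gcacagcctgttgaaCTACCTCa
Lin28a, chr4:133731862-133731884: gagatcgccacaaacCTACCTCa
Lin28b, chr10:45257118-45257140: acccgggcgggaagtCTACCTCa
Lin28b, chr10:45254744-45254766: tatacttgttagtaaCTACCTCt
Lin28b, chr10:45254572-45254594: gtttacagcacatggCTACCTCc
Lin28b, chr10:45253156-45253178: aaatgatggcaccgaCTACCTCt
Both Lin28a matches and the first Lin28b match are followed by an A. Of 19755 such 3′ UTRs, 1995 (10.1%) held a match, whereas those of Myc (466 bases), Mycl (1974 bases) and Mycn (931 bases) held none. Only full matches to bases 2 to 8 were searched, so the absence of a match does not show the absence of a let-7 site. The paper lists let-7 sites in the 3′ UTR of human MYCN. A match is a description of the sequence and no measurement of let-7 binding.

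No gain of Lin28a, Lin28b, Mycl or Myc was called in any of the 21 samples. A loss was called in a single tumour, TI replicate 6, where it covered Lin28a and Mycl together. For comparison, 24% of all genes tested were gained in at least 1 TI tumour and 13.7% in at least 1 TIM tumour, while 9.24% were lost in at least 1 TI tumour and 0.344% in at least 1 TIM tumour. The loss share of 1 of 8 TI tumours corresponds to 12.5%, with an exact Clopper-Pearson interval of 0.316% to 52.65% at a confidence level of 95%. The absence of calls in 8 tumours allows a share of up to 36.94% by the same interval. Neither gains nor losses of any of the 4 genes differed detectably between TI and TIM (p = 1 and adjusted p = 1 for each by Fisher's exact test). The same test reached an adjusted p under 0.05 in 0% of all genes for gains and in 0% for losses. Without TI replicate 6, no loss of the 4 genes remained. With thresholds of 0.2 and -0.2, Mycl was also lost in TI replicate 3, giving 2 of 8 TI and 0 of 8 TIM tumours (Fisher's exact p = 0.47, adjusted p = 1). In that tumour the median of the whole of Chr 4 was -0.25, lower than Mycl at -0.21. With 0.1 and -0.1, a gain of Lin28b in TI replicate 4 and a loss of Myc in TI replicate 7 were added.

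**Figure D1:**
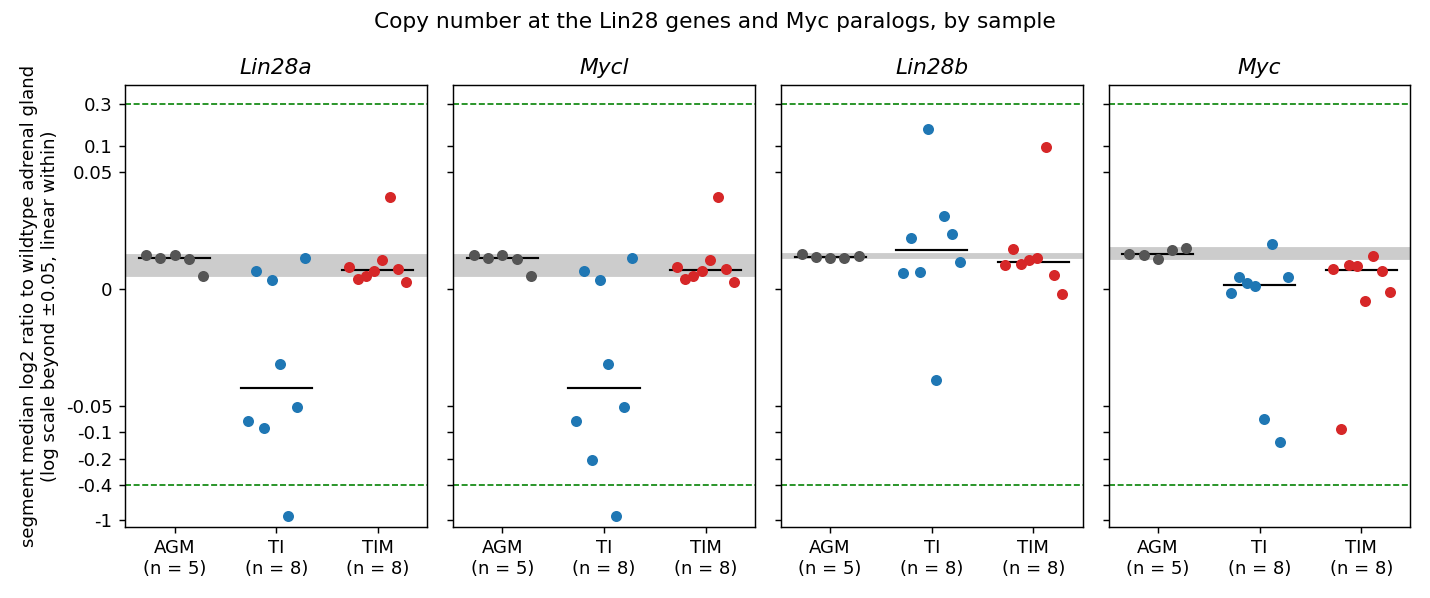
Median log2 ratio to wildtype adrenal gland of the segment that holds Lin28a, Mycl, Lin28b or Myc, for each AGM, TI and TIM sample (1 point each, in order of replicate). Black lines are group medians, the grey band is the AGM range and dashed lines are the thresholds of 0.3 and -0.4. The vertical axis is logarithmic beyond 0.05 in either direction. A single point per panel lies below the loss line for Lin28a and Mycl, TI replicate 6 at -0.91, and no point lies above the gain line.

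Lin28a (ENSMUSG00000050966) lies on the minus strand of Chr 4 at chr4:133730641-133746173 (GRCm39). In AGM its log2 ratio was 0.015, 0.013, 0.015, 0.013 and 0.0056 in replicates 1 to 5. In TI replicates 1 to 8 it was -0.075, 0.0076, -0.090, 0.0039, -0.032, -0.91, -0.052 and 0.013. Thus 6 TI tumours lay below every AGM gland, 1 of them far from the others, and 2 lay within the AGM range. In TIM the values were 0.0096, 0.0041, 0.0057, 0.0079, 0.012, 0.039, 0.0084 and 0.0031 in replicates 1, 4, 5, 7, 8, 9, 11 and 12. Of the TIM values, 5 lay inside the AGM range, 2 below and 1 above. The lower end of this range was set by AGM replicate 5 alone, and without it 7 TIM and 7 TI tumours lay below the other 4 glands.

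Mycl (ENSMUSG00000028654), which encodes the MYC paralog first found in lung cancer, lies on the plus strand of the same chromosome at chr4:122889408-122896282, 10.83 Mb proximal of Lin28a. Both genes fell on the same segment and had the same value in 20 of 21 samples. The exception was TI replicate 3, in which a segment border at position 123680000 separated Mycl, at -0.21, from Lin28a, at -0.090. Because of this shared segment the results of Lin28a and Mycl are 1 measurement rather than a pair of independent ones.

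In TI replicate 6 the lost segment around both genes reached from 109540001 to 145640000 on Chr 4 and spanned 36.1 Mb, with a deposited copy number of 1.1. It was flanked by further lost segments of 19.56 Mb (-0.87) and 10.74 Mb (-0.94), and losses covered 42.33% of the chromosome. Distal Chr 4 was also lost in TI replicate 4, in segments of 7.48 and 9.76 Mb with log2 ratios of -0.996 and -0.997. In that tumour the loss began 4.414 Mb distal of Lin28a, so Lin28a and Mycl stayed at 0.0039. No Chr 4 segment longer than 1 Mb was called lost in a TIM tumour, where losses on Chr 4 covered at most 0.51% of its length.

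**Figure D2:**
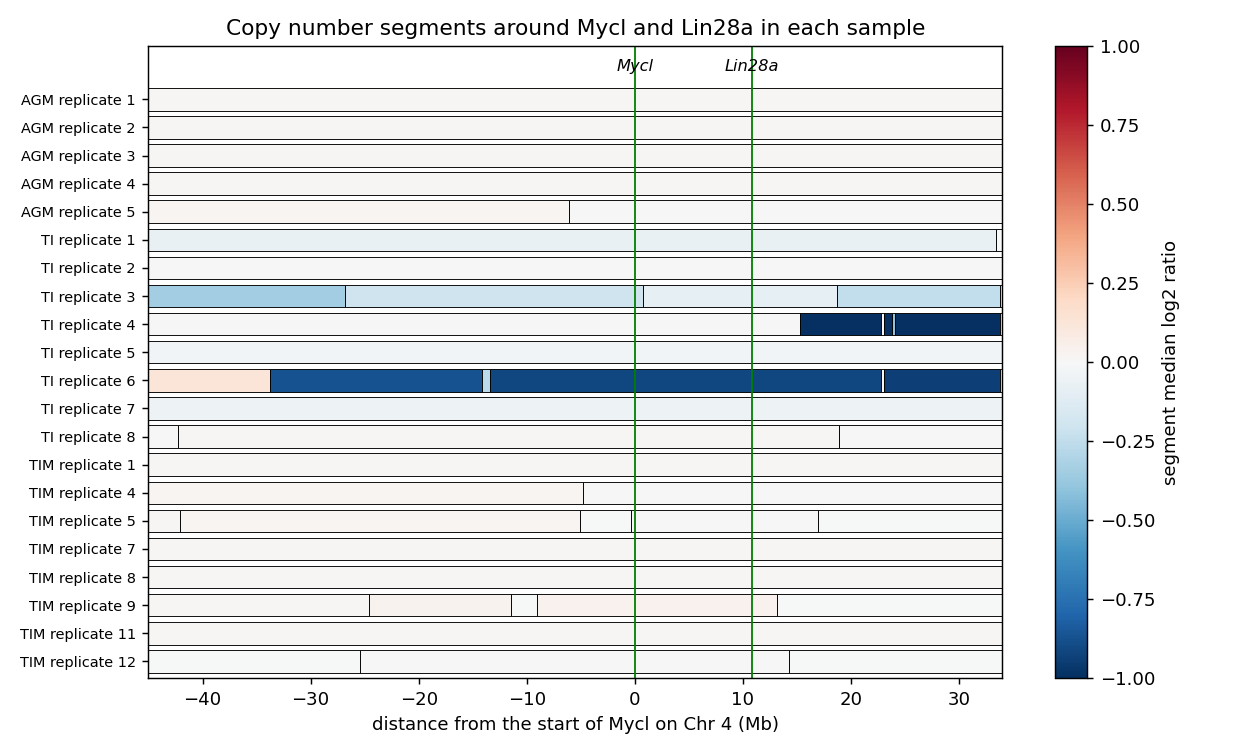
Copy number segments of Chr 4 around Mycl and Lin28a in every AGM, TI and TIM sample, with the distance from the start of Mycl in Mb on the horizontal axis and the median log2 ratio of a segment as colour. Black outlines are segment borders and green lines mark the gene starts. The dark blue segments of TI replicate 6 span both genes, those of TI replicate 4 begin 4.414 Mb beyond Lin28a, and the border in TI replicate 3 runs between the genes.

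The comparison of the groups asked whether tumours with IGF2BP1 alone differ at these genes from tumours with both transgenes and from MYCN adrenal glands. The median log2 ratio at Lin28a and Mycl was -0.042 in TI, 0.0082 in TIM and 0.013 in AGM. TI was lower than TIM in 53 of 64 pairs of samples, with an unadjusted p of 0.028 and an adjusted p of 0.082 (two-sided exact permutation test of the rank sum, n = 8 and 8). Against AGM, TI was lower in 36 of 40 pairs, with an unadjusted p of 0.019 and an adjusted p of 0.062 in the same exact test. The difference between TIM and AGM did not pass the test (exact p = 0.17, adjusted p = 0.47). Its unadjusted exact p was 0.048 without AGM replicate 5 and 0.048 without TIM replicate 9, with adjusted p-values of 0.486 and 0.185. These shifts did not pass adjustment over all genes. They were small compared with a loss, since only TI replicate 6 crossed the threshold.

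A lower TI value of this kind was common across the genome. Against TIM, 27.6% of all genes were lower in TI at an unadjusted p under 0.05 and 10.8% at an adjusted p under 0.05, while 10.7% were higher at an adjusted p under 0.05. Against AGM, 39.1% were lower in TI at an unadjusted p under 0.05 and 11.3% at an adjusted one, and 6.35% were higher at an adjusted p under 0.05. For TIM against AGM, 0% of genes were lower and 0% were higher at an adjusted p under 0.05, and 5.22% were lower at an unadjusted p under 0.05.

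The Chr 4 result turned on the choice of libraries. Without TI replicate 8, the only TI library with the prefix AGH, the adjusted exact p at Lin28a and Mycl became 0.025 against TIM and 0.025 against AGM. That tumour, at 0.013, lay inside the AGM range and above 7 of the 8 TIM tumours. A comparison of AGH libraries alone holds 1 TI tumour and cannot reach the threshold, the smallest exact p being 0.22 against TIM and 0.33 against AGM. Since the other 7 TI libraries carry the prefix SH, the library prefix and the group cannot be told apart. After subtraction of the autosomal median of each sample, TI remained lower in rank, but the unadjusted exact p was 0.16 against TIM and 0.28 against AGM (adjusted p = 0.29 and 0.37). Of 9 ways of computing the comparison, AGH libraries alone and the replicate number as a block cannot reach the threshold. Over the rest, the adjusted p ranged from 0.045 to 0.29 against TIM. Against AGM it ranged from 0.033 to 0.55 for Lin28a and to 0.43 for Mycl.

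Lin28b (ENSMUSG00000063804), the second LIN28 gene, lies on the minus strand of Chr 10 at chr10:45252646-45362557. Its AGM values were 0.015, 0.014, 0.013, 0.013 and 0.014. In TI replicates 1 to 8 the log2 ratio was 0.0069, 0.022, 0.0073, 0.16, -0.039, 0.031, 0.024 and 0.012. TI tumours scattered to both sides of the AGM range, with 4 above and 4 below it. TIM replicates 1, 4, 5, 7, 8, 9, 11 and 12 had 0.011, 0.017, 0.011, 0.012, 0.013, 0.098, 0.0060 and -0.0023. Of these, 5 lay below the AGM range, 1 within and 2 above it.

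The highest Lin28b value, 0.16 in TI replicate 4, belonged to a segment of 71.72 Mb with a deposited copy number of 2.2. The second, 0.098 in TIM replicate 9, came from a segment of 7.22 Mb that ended 0.4374 Mb from the gene, and the median of the whole chromosome in this tumour was 0.080. In 13 of 21 samples the segment of Lin28b was the whole chromosome. The groups overlapped widely. Medians were 0.017 in TI, 0.012 in TIM and 0.014 in AGM, and the exact permutation test gave adjusted p-values of 0.75 (TI and TIM), 1 (TI and AGM) and 0.62 (TIM and AGM).

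Myc (ENSMUSG00000022346) lies on the plus strand of Chr 15 at chr15:61857227-61862223. Its AGM values were 0.015, 0.014, 0.013, 0.017 and 0.017. In TI replicates 1 to 8 it was at -0.0015, 0.0054, 0.0025, 0.0012, -0.071, 0.019, -0.13 and 0.0053. TIM values were 0.0086, -0.093, 0.010, 0.0100, -0.0051, 0.014, 0.0078 and -0.0014 in the same order of replicates as above. Hence 7 of 8 TI and 7 of 8 TIM tumours lay below every AGM gland, with TI replicate 6 above the AGM range and TIM replicate 9 inside it. By a rule chosen after these values were seen, 2.46% of all genes were below the AGM range in at least 7 TI and at least 7 TIM tumours.

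The distance of most tumours from AGM at Myc was small. Group medians were 0.0019 in TI and 0.0082 in TIM against 0.015 in AGM, and the copy number was deposited as 2.0 in all but 3 tumours. Those were TI replicate 7 with 1.8 and TI replicate 5 and TIM replicate 4 with 1.9. TIM was lower than AGM in 39 of 40 pairs, with an exact p of 0.0031 and an adjusted p of 0.23. TI was lower in 35 of 40 pairs, with an exact p of 0.030 and an adjusted p of 0.062. TI and TIM did not differ detectably (exact p = 0.38, adjusted p = 0.62).

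At Myc, the test between TI and AGM turned on a single tumour and also on the centring of the samples. Without TI replicate 6, which is also the only TI tumour of the adrenal gland, the adjusted exact p was 0.0078. After subtraction of the autosomal median of each sample, with all tumours kept, the adjusted p was 0.0064. The autosomal median of TI replicate 6 was 0.025, above its value of 0.019 at Myc. Of 9 ways of computing the comparison, AGH libraries alone and the replicate number as a block cannot reach the threshold. Over the rest, the adjusted p ranged from 0.0064 to 0.34. TI replicate 8, the tumour with an AGH library, had 0.0053 at Myc and also lay below all AGM glands.

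The deposited mean of a segment often lay further from 0 than its median, and the picture at Lin28a and Mycl differed between both columns. For Lin28a the mean log2 ratio was -0.25, -0.27, -0.21, -0.71 and -0.23 in TI replicates 1, 3, 5, 6 and 7. In the other TI tumours it lay between -0.039 and 0.017, and in TIM between -0.026 and 0.093. By a threshold of -0.2 on the mean, chosen after seeing the data, both genes were reduced in 5 of 8 TI tumours but in 0 of 8 TIM tumours, with a p of 0.026 by Fisher's exact test and an adjusted p of 0.26. As a background, 10.1% of all genes had such a mean in at least 5 TI tumours. Segments with a mean of at most -0.2 covered 18.65%, 17.41%, 49.94%, 11.55% and 31.9% of the autosomes in TI replicates 1, 3, 5, 6 and 7, against at most 6.072% in the other TI tumours. All 5 of these libraries carry the prefix SH, as do TI replicates 2 and 4, which were not reduced, and the part of the prefix in the result was not tested. With the mean in place of the median, the exact permutation test of TI against AGM gave an adjusted p of 0.033 for Lin28a and Mycl, and that of TI against TIM gave 0.15.

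At the other genes fewer tumours were past 0.2 in the mean. For Myc these were TI replicate 5 (-0.26), TI replicate 7 (-0.31) and TIM replicate 4 (-0.29), all reduced. For Lin28b they were TI replicate 4, which was raised (0.23), and TI replicate 5, which was reduced (-0.21). TI replicate 5 had a mean of at most -0.2 at all 4 genes, but the autosomal median of its segment means was itself -0.195. Lin28a, Mycl and Lin28b, at -0.21 each, were thus near the baseline of this tumour. By the segment medians its autosomal median was -0.027, the lowest of the 21 samples, beside -0.032 at Lin28a and -0.039 at Lin28b.

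**Figure D3:**
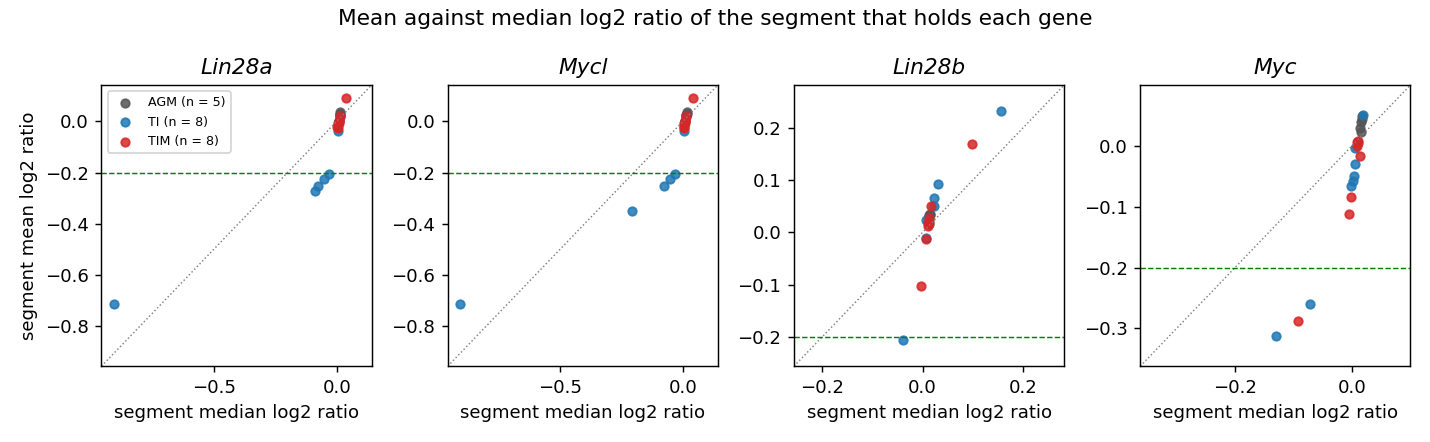
Mean against median log2 ratio of the segment that holds each gene, 1 point per sample, coloured by AGM, TI and TIM. The dotted line is equality and the dashed line a mean of -0.2. For Lin28a and Mycl, 5 TI points and no TIM point lie below the dashed line, and 4 of these 5 have a mean below their median.

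Most values of the 4 genes were those of long stretches of a chromosome. The Lin28a value equalled the median of Chr 4 in 13 of 21 samples, the Lin28b value that of Chr 10 in 18, and the Myc value that of Chr 15 in 20. No segment border lay within 1 Mb of Lin28a or Myc, whereas there was 1 sample with such a border at Lin28b and 2 at Mycl. All 53 protein-coding neighbours within 1 Mb of Lin28a, among them Dhdds and Zfp683 as the nearest, had the same values in all samples. The same held for the 5 neighbours of Lin28b, with Popdc1 and Hace1 nearest, and for 18 of 21 neighbours of Mycl, with Mfsd2a and Trit1 nearest. Myc had no protein-coding neighbour within 1 Mb.

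Among 56 genes of LIN28, let-7 and MYC biology, those on other chromosomes with the most similar values were identified by the mean absolute difference in log2 ratio over 21 samples. For Lin28a these were Tut7 (0.053) and Tert (0.053), for Mycl Kat5 (0.054) and Mxi1 (0.054), for Lin28b Plk1 (0.016) and Fbl (0.017), and for Myc Cdk6 (0.013) and Cad (0.014). For Lin28a and Mycl these means include the loss in TI replicate 6.

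Unlike at the 4 genes, gains were called at several genes for partners and targets of their products. Of the 56 genes, 17 (30.4%) were gained in at least 1 TI and 11 (19.6%) in at least 1 TIM tumour, compared with 24% and 13.7% of all genes. Losses affected 4 genes (7.14%) in TI and 0 in TIM, compared with 9.24% and 0.344% of all genes. TI was higher than TIM for 11 genes (19.6%) and lower for 6 (10.7%) at an adjusted exact p under 0.05, where 10.7% and 10.8% of all genes were called. Against AGM, TI was higher for 8 genes (14.3%) and lower for 7 (12.5%), where 6.35% and 11.3% of all genes were called, and TIM differed for 0. The median difference between TI and TIM was -0.0040 over the 56 genes and -0.0045 over all genes. Gains in at least 3 tumours of TI or of TIM were found for 13 of the 56 genes (23.2%) and for 13.3% of all genes. These 13 genes lay on Chr 6 (4 genes), Chr 11 (5) and Chr 12 (4), and those of 1 chromosome mostly shared their segments. The gene lists were drawn up with earlier results of these data known. The shares therefore cannot test whether genes of this biology are gained more often than others.

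In the MYC/MAX network, 5 of 11 genes belonged to these 13. Mycn, the paralog that was not among the 4 genes, had log2 ratios of 0.14, 0.60, 0.58, 0.15, 0.64, 0.064, 0.60 and 0.50 in TI replicates 1 to 8. It was gained in 5 of 8 TI and 0 of 8 TIM tumours, in which it reached at most 0.023. Its log2 ratio was higher in TI than in TIM (adjusted exact p = 0.0050). Max, the dimerization partner of all MYC proteins, also lies on Chr 12 and was gained in the same number of tumours, with medians of 0.58 in TI and 0.014 in TIM (adjusted exact p = 0.0050). Mlx, which encodes a MAX-like dimerization partner, was gained in 7 TI and 2 TIM tumours (adjusted exact p = 0.027). Mnt, a MAX-binding repressor, was gained in 4 TI and 1 TIM, and the repressor Mxd1 in 2 TI and 3 TIM tumours, without a difference that passed the test (adjusted exact p = 0.49 and 0.89).

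**Figure D4:**
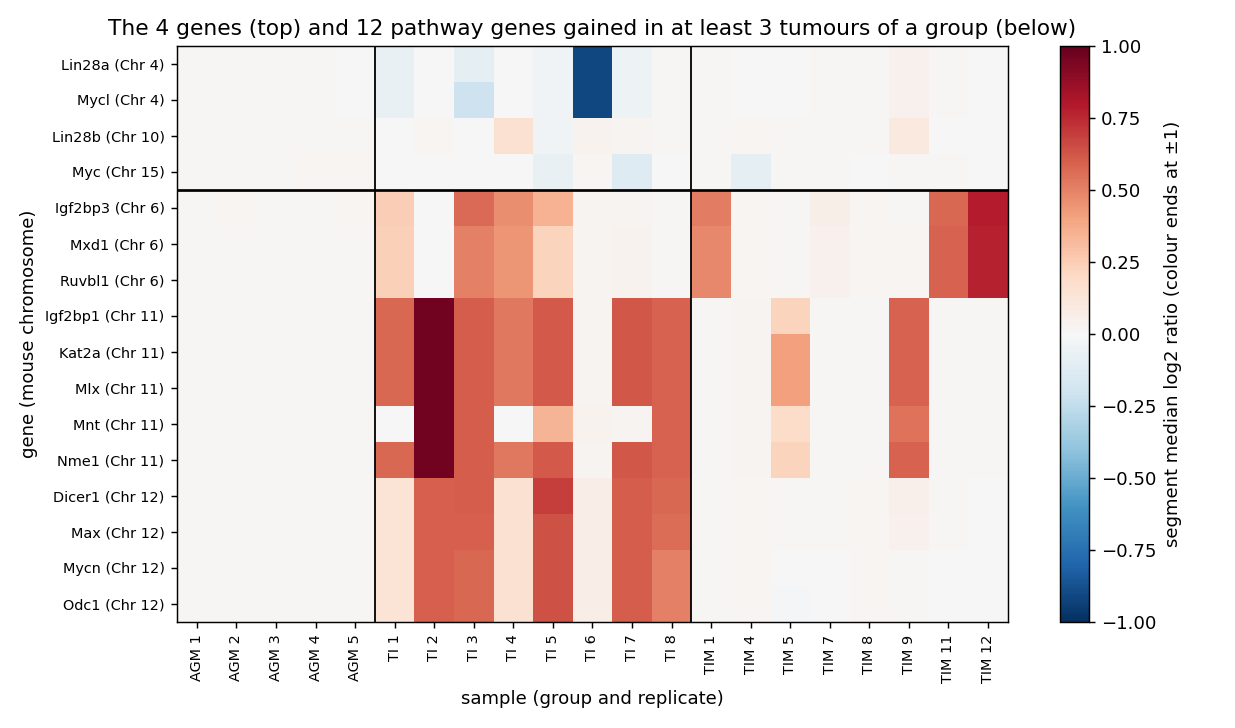
Median log2 ratio (colour, ending at 1 in either direction) at Lin28a, Mycl, Lin28b and Myc in the upper 4 rows and at 12 of the 13 pathway genes gained in at least 3 tumours of a group below, for each AGM, TI and TIM sample in columns. The upper rows stay pale apart from TI replicate 6 at Lin28a and Mycl (-0.91), while Mycn and its Chr 12 companions are red in 5 TI tumours.

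Of the 10 genes of LIN28 function and let-7 processing, Dicer1, which encodes the enzyme that releases mature let-7, was gained in 5 TI and 0 TIM tumours (medians 0.59 and 0.014, adjusted exact p = 0.0050). The let-7 targets included Igf2bp1, gained in 7 TI and 1 TIM tumours (adjusted exact p = 0.027), and Igf2bp3, gained in 3 tumours of each group (adjusted exact p = 0.89). Among 14 MYC cofactors, the acetyltransferase gene Kat2a was gained in 7 TI and 2 TIM tumours (adjusted exact p = 0.027) and Ruvbl1 in 2 TI and 3 TIM tumours (adjusted exact p = 0.89). Of 10 MYC targets, Odc1, which encodes the first enzyme of polyamine synthesis, was gained in 5 TI and 0 TIM tumours (adjusted exact p = 0.0050), and Nme1 in 7 TI and 1 TIM tumours (adjusted exact p = 0.027).

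TI replicate 6, the tumour with the loss of Lin28a and Mycl, had the lowest values of all TI tumours at Mycn (0.064) and Igf2bp1 (0.028), and neither was called gained there. It was the only TI tumour without a gain of Igf2bp1. Since this is a single tumour, no comparison was made. In TI replicate 4, where Lin28b was highest, Mycn was at 0.15 and Igf2bp1 was gained at 0.53.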

How the data were processed

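sWGS libraries were prepared from murine tissue DNA. According to the submitters' processing notes, cutadapt 2.8, HISAT2 2.1.0 and SAMtools 1.10 were used with the genome build mm39 (GRCm39), and the authors called copy number with cn.MOPS. For each segment of a sample, the deposited values are the median and the mean of the log2 ratio to AG, and a copy number. The latter equalled the diploid number multiplied by the ratio, to 1 decimal, in all 1485 segments. Segments begin at multiples of 20 kb, the shortest being 40.0 kb. The libraries were sequenced at low coverage by design, and the depth of each one was not analysed here. Window and segmentation settings are not given in the sources used here, so precision was judged from the spread of AGM.

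Each of 20621 autosomal protein-coding genes (GENCODE M39) took the median of the segment with the largest overlap. The genes formed 525 distinct patterns. Group differences were tested with exact permutations of the rank sum (Mann-Whitney, two-sided), and calls in TI and TIM with Fisher's exact test (two-sided), both with Benjamini-Hochberg adjustment over all genes at 0.05. The smallest p attainable was 0.00016 for TI and TIM and 0.0016 against AGM. Comparisons with AGM share the same glands. The code was tested on simulated data. let-7 sequences came from RefSeq (GRCm38.p6) and 3′ UTRs from GRCm39. The 4 genes, the gene lists and the tests were chosen with earlier results of these data known. Pathway genes were named when gained or lost in at least 3 tumours of TI or TIM, with other named genes chosen after their values were seen. The values of 1 gene that met this rule are not reported here, although it is counted. Analyses used Python 3.11.15 with numpy 2.4.6, scipy 1.17.1 and pandas 2.3.3.

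Alternatives were another test statistic, the mean column, centring, other overlap rules, adjustment over distinct patterns, other thresholds, subsets of samples, leaving out each library, and the replicate number as a block.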

Additional observations from a re-analysis of the deposited data

Results flagged for a closer look

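Single samples stood apart from the rest of their group by Dixon's criterion in 9 of 12 sets of gene and group. Chance would give 0.6 flags, but the sets are not independent, so the counts are not a test. Lin28a and Mycl share their segment and were therefore flagged together.

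At Lin28a and Mycl, TI replicate 6 was lowest at -0.9074, with the next Lin28a value at -0.090 and the next Mycl value at -0.21. TIM replicate 9 was highest at 0.03936 against 0.012 for the next tumour, and AGM replicate 5 was lowest at 0.005581 against 0.013. In the latter gland the segment spanned 40.02 Mb, against 114 to 114.2 Mb in the other glands.

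At Lin28b, TI replicate 4 was highest at 0.1553 against 0.031, and TIM replicate 9 was highest at 0.09845 against 0.017. At Myc, TIM replicate 4 was lowest at -0.09258 against -0.0051. Of these samples only TI replicate 6 passed the threshold of a gain or a loss.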

How the results depend on the processing

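Over 460 alternative values for 20 results, 443 stayed on the same side of the threshold, 11 passed it only under the alternative and 6 reversed. Of the 460, 192 concern gains and losses, whose main p is 1 and none of which passed the threshold. Their counts did change: at 0.2 and -0.2 as at 0.1 and -0.1, Mycl losses in TI went from 1 to 2, and at 0.1 and -0.1 Lin28b gains and Myc losses in TI went from 0 to 1 each. Of the 268 for the log2 ratios 251 stayed on the same side. Of the 443, 418 kept their direction, and in 25 a direction appeared or vanished. Of these 25, 15 concern Lin28b in TI against AGM, which had no direction, and 4 the losses of Lin28a and Mycl, which vanish without TI replicate 6. At Lin28a and Mycl, a difference of means gave an adjusted p of 0.04453 for TI against TIM, but 0.5459 (Lin28a) and 0.4261 (Mycl) for TI against AGM. The mean column gave 0.03251 for TI against AGM, but 0.1483 for TI against TIM. Centring gave 0.2923 for TI against TIM and 0.3688 for TI against AGM. With AGH libraries only, TI is the single tumour of replicate 8, whose value was higher in both comparisons (adjusted exact p = 1), a test that cannot reach the threshold. At Myc, TI against AGM gave 0.006358 after centring and 0.007831 for tumours outside the adrenal gland. At Lin28b, TIM against AGM reversed with a difference of means (0.9992) and after centring (1). The cause was not tested. Leaving out each library gave adjusted p-values of 0.02479 to 0.1576 for TI against TIM and 0.02476 to 0.1011 for TI against AGM at Lin28a and Mycl, the lowest of each without TI replicate 8. For TIM against AGM at Lin28a and Mycl the range was 0.185, without TIM replicate 9, to 0.692. For Myc, TI against AGM ranged from 0.007831, without TI replicate 6, to 0.1011. 

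The labels do not state that replicate numbers pair the samples. Deviations of same-numbered samples correlated between -0.478 and 0.2055. This cannot decide whether they were paired, since differently numbered samples were not correlated. With the replicate number as a block, adjusted p-values at Lin28a and Mycl were 0.4478 (TI against TIM), 0.1091 (TI against AGM) and 0.8528 (TIM against AGM). With 5, 5 and 3 same-numbered pairs the smallest exact p is 0.0625, 0.0625 and 0.25, so that no call could be gained and these values say nothing about stability. TI against AGM lay at that smallest p. Depth per library was not analysed here, and small shifts within long segments rest on the authors' normalization.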

Other observations

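Of the 10 genes of LIN28 function and let-7 processing, 2 were higher and 3 lower in TI than in TIM at an adjusted exact p under 0.05, where 10.7% and 10.8% of all genes were called. The higher ones were Dicer1 and Xpo5, which encodes the exporter of microRNA precursors (medians 0.17 and 0.0093, adjusted exact p = 0.037). Apart from Dicer1, the genes named here were chosen after their values were seen. Trim71, which encodes an RNA-binding protein repressed by let-7, lies on Chr 9 and had a median of -0.12 in TI and 0.012 in TIM (adjusted exact p = 0.033). Tut4 and Tut7, which encode the enzymes that add uridines to let-7 precursors bound by LIN28, had medians of -0.042 and -0.0036 in TI against 0.011 and 0.0099 in TIM (adjusted exact p = 0.037 and 0.027). Tut4 shares Chr 4 with Lin28a and was lost in TI replicate 6 at -0.87. Zbtb17, which encodes the MYC-binding factor MIZ1, lies on distal Chr 4 and was lost in TI replicates 4 (-0.996) and 6 (-0.907), the latter on the segment of Lin28a, but the difference between TI and TIM did not pass the test (adjusted exact p = 0.10). Neither Trim71 nor Tut7 passed the loss threshold in any tumour, and Trim71 was lowest in TI replicate 4 at -0.34. The same confounding of library prefix and group applies to these values.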
